A study of Triticum aestivum with 12 samples.

Results

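Salt-treated shoots were compared with salt-treated roots of the Saudi wheat cultivar Najran, in 3 libraries of each organ. The comparison took in every gene of the table of normalized counts that reached a normalized count of 10 in at least 3 of these 6 libraries, which was 47079 of the 83486 genes listed. It asks which described gene groups separate the organs at 200 mM NaCl, within a study of how roots and shoots of this cultivar respond to salinity. Plants of 1 genotype, given by the study as bread wheat (Triticum aestivum), were watered after germination with 200 mM NaCl (salt-treated) or with tap water (control, 0 mM NaCl). By the study's account this lasted until full vegetative growth. They grew under 16 h of light at 20 °C and 8 h of dark at 15 °C with 70% humidity. Roots and shoots were harvested separately, each sample held 2 plants, and the series has 12 libraries, 3 from each organ and treatment. By the study's account both organs came from the same plants, but it is not stated whether the same replicate number marks the same plants. Whole organs were ground, so a lower value can reflect fewer cells of a type or less RNA in each cell, which bulk libraries cannot tell apart.

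Roots take up water and mineral ions and hold wall barriers of lignin and suberin, while shoots capture light and fix carbon in chloroplasts behind a waxy cuticle. Under salinity the root is the first organ to meet sodium, which reaches the leaves in the xylem stream, and plants restrain its entry, place it in vacuoles and accumulate compatible solutes such as proline. Dehydrins and other late embryogenesis abundant (LEA) proteins, chaperones and antioxidant enzymes protect proteins and membranes in cells that lose water.

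The normalized counts summed to 13890200 to 14183800 in the 3 salt-treated root libraries and to 18565100 to 19748400 in the 3 salt-treated shoot libraries. The 100 highest genes took 9.19% to 10.6% of the total in roots and 18.2% to 21.4% in shoots. Across the genes tested, log2 values of libraries of the same organ correlated with r of 0.929 to 0.947 in roots and of 0.958 to 0.965 in shoots, and those of different organs with r of 0.439 to 0.507. The median standard deviation (SD) within an organ was 0.33 in roots and 0.25 in shoots on the log2 scale. Organ markers followed the labels in part: 65 described chlorophyll a-b binding proteins summed to 218 to 254 normalized counts in the root libraries and to 372260 to 439904 in the shoot libraries, and 23 described Rubisco small chains to 184 to 206 and 431629 to 525329. Of the root markers, class III peroxidases summed to 83203 to 138206 in roots and 33196 to 38156 in shoots, whereas dirigent proteins overlapped between the organs and the sums of nicotianamine synthases (2514 to 2595 in roots, 6660 to 8887 in shoots) and CASP-like proteins (4716 to 5423 and 7480 to 8295) were higher in shoots. The tested genes held 70.0% of the genes listed on the A subgenome, 69.5% of those on B and 21.6% of those on D. D genes took 2.54% to 2.62% of each root library and 5.34% to 6.28% of each shoot library. The shoot share rests largely on TraesCS5D02G425100, with 2.25% to 2.93% of each shoot library, and TraesCS5D02G010200, with 0.825% to 1.04%. Copies of a gene on the 3 subgenomes are close in sequence, and reads may be split between them, so a value of a single copy is less certain than that of its family. The cause of the low D values was not tested, and values of D copies named below carry that limit.

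Genes were called differentially expressed (DEGs) in limma where the adjusted p was under 0.01 and the organs differed by at least 1 log2 unit, with positive log2 fold changes for genes higher in shoots. Of the 47079 genes tested 14010 were DEGs (29.8%), of which 8213 (17.4% of those tested) were higher in shoots and 5797 (12.3%) were higher in roots. Over all these genes the log2 fold changes had their median at -0.03 and their quartiles at -0.58 and 0.84. The libraries of the organs did not overlap for 56.5% of the genes tested, and for all 14010 DEGs. The split between organs rests on the scaling: when libraries were scaled to the same total, the median of all genes moved from -0.03 to -0.48 and the share of DEGs higher in shoots from 58.6% to 42.9%, while no DEG shared by both scalings changed direction. Fold changes below are on the log2(normalized count + 1) scale of the authors' normalization and can be read against that shift of 0.45.

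Of the genes tested 4639 carried a description, of which 2103 were higher in shoots, 1136 higher in roots and 1400 were not called, with a median log2 fold change of 1.11. Descriptions exist only for genes that appear in a deposited list of DEGs, so 69.8% of described genes were called here against 25.4% of the others, and counts within a family are not a measure of enrichment. When only the descriptions from the lists of salt-treated against control plants were used, 1604 genes remained, with 517 higher in shoots, 349 higher in roots and a median of 0.45. Those lists were not made by comparing the organs, but they use the same salt-treated libraries. They are therefore not independent of the organ difference under salt. With these descriptions the median changed sign for dirigent proteins and aquaporins, given below, for the sucrose, trehalose and raffinose genes (to 0.0083) and for the DETOXIFICATION transporters (to 0.09). The 45 families below were sorted by the words of the description and held 2432 of the genes tested. Values of 3 libraries are given in the order of replicates 1, 2 and 3. Where genes are ranked by mean normalized count, the rank rises with gene length as well as with transcript number.

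**Figure D1:**
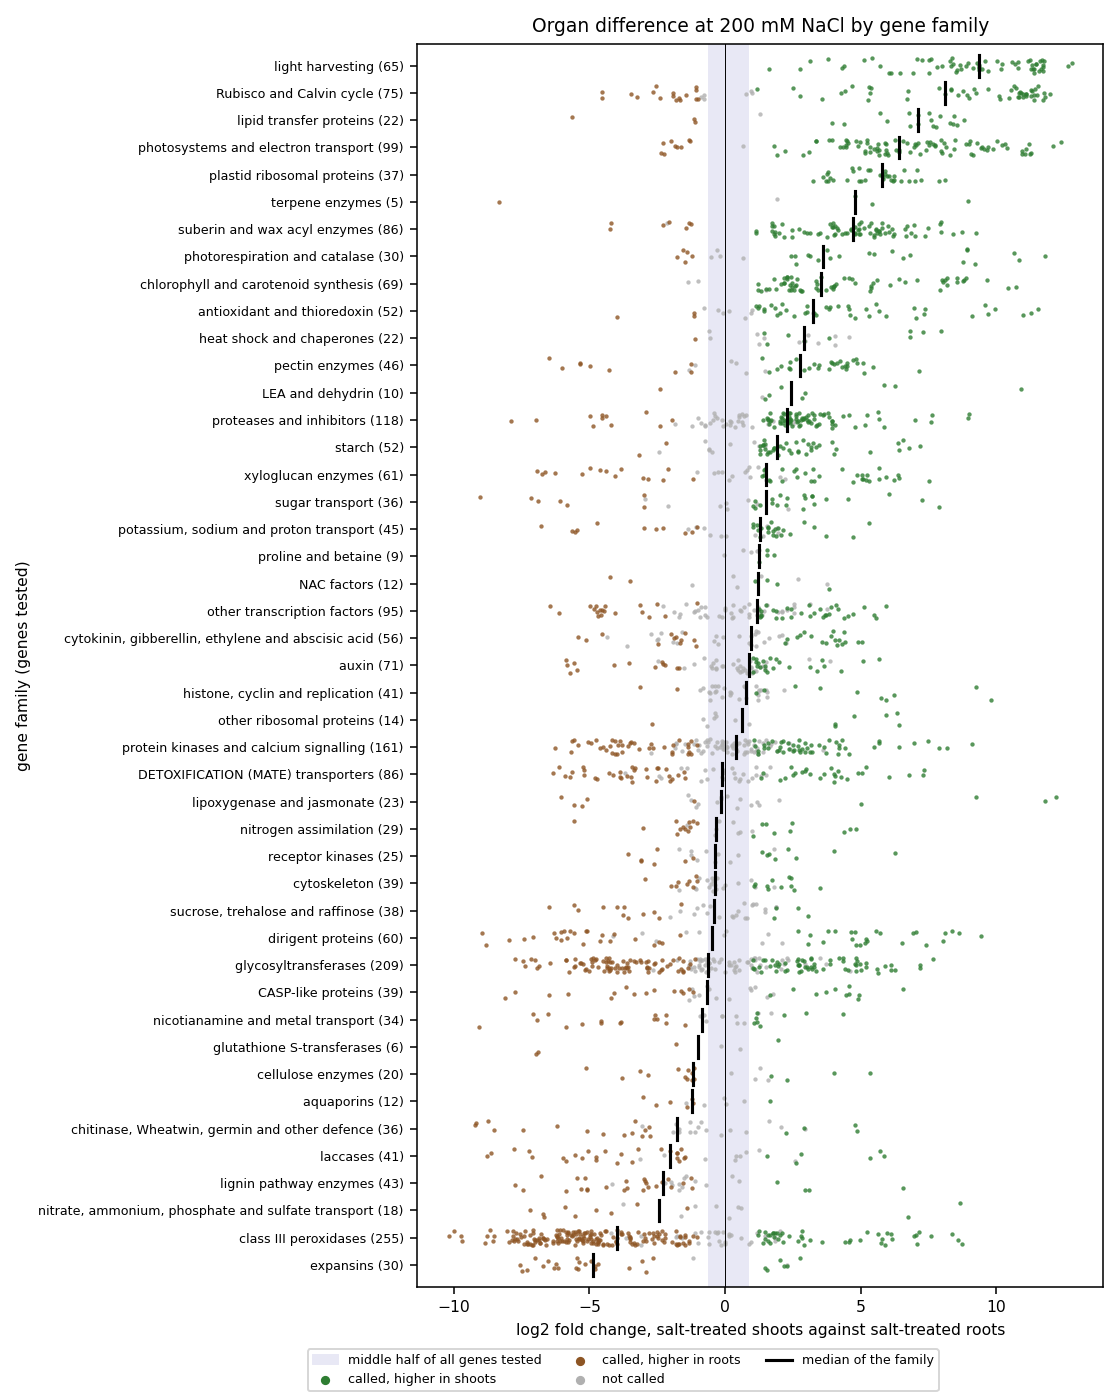
Log2 fold change of salt-treated shoots against salt-treated roots (x axis) for each gene tested in each family (y axis, with the number of genes tested), coloured by call, with the family median as a black bar and the quartiles of all genes tested (-0.58 and 0.84) as a shaded band. Family medians ran from 9.37 for light harvesting to -4.86 for expansins, and many families held DEGs in both directions.

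Light-harvesting proteins, which bind chlorophyll and pass absorbed light to the reaction centres, gave the largest separation of the organs. All 65 genes tested were higher in shoots, with a median log2 fold change of 9.37 against -0.03 for all genes tested, and the family took 2.01% to 2.26% of each shoot library and 0.00254% to 0.00298% of each root library. The chlorophyll a-b binding protein gene with the highest mean count, TraesCS2A02G187200 (chromosome 2A, 148869610 to 148871166), was at 12.3, 7.40 and 8.73 in roots and at 26737, 29093 and 26598 in shoots, a log2 fold change of 11.38 (standard error, SE, 0.18, adjusted p = 2.35e-07). All shoot libraries lay above all root libraries for this gene. The largest fitted value among described genes belonged to TraesCS1B02G451100 (chromosome 1B, 668911604 to 668912857), listed at 0, 0 and 1.75 in roots and at 10456, 10004 and 9307 in shoots (12.79, SE 0.40, adjusted p = 1.52e-06). A fitted fold change of a gene that is near 0 in an organ depends on the pseudocount, and the median of the family was 11.2 with a pseudocount of 0.1 and 6.32 with a pseudocount of 10. The smallest difference was that of TraesCS1D02G411600, at 13.01, 19.5 and 19.2 in roots and 62.8, 59.1 and 42.7 in shoots (1.62, SE 0.30).

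Photosystem and electron transport genes, whose proteins split water and carry electrons along the thylakoid membrane, were higher in shoots for 89 of 99 genes tested and higher in roots for 9, with a median of 6.40. All 29 photosystem I and II subunits were higher in shoots. The member with the highest mean count, the oxygen evolving enhancer protein TraesCS2B02G270300 (chromosome 2B, 368613668 to 368615969), was at 38.2, 26.9 and 18.3 in roots and at 28668, 30947 and 25964 in shoots (10.01, SE 0.25, adjusted p = 7.60e-07). Plastocyanin, the copper protein that hands electrons to photosystem I, was at 2.30, 2.76 and 0.874 in roots and at 16384, 14479 and 14472 in shoots for TraesCS7A02G000400 (12.37, SE 0.27). Photosystem I subunit VI (TraesCS1A02G392000) was at 2.30, 0 and 1.75 in roots and 10346, 8566 and 8181 in shoots.

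The 9 genes of this family that were higher in roots included ferredoxins and their reductase, which in non-green plastids supply electrons to reduce nitrite and sulfite. Of 13 ferredoxins, 7 were higher in shoots and 6 in roots. The root-higher ferredoxin TraesCS1A02G276300 was at 1208, 980 and 1467 in roots and 272, 240 and 232 in shoots (-2.28, SE 0.17), and the shoot-higher TraesCS7B02G226200 at 23.8, 16.6 and 12.2 in roots and 1937, 1681 and 1535 in shoots (6.58, SE 0.25). Ferredoxin-NADP reductase showed the same division: 4 of 7 genes were higher in shoots and 2 in roots. Its copy TraesCS5A02G423000 (chromosome 5A, 608965369 to 608969018) had the most negative value of the family, with 4069, 3880 and 4245 in roots and 855, 849 and 700 in shoots (-2.35, SE 0.13, adjusted p = 1.32e-05).

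Rubisco and the Calvin cycle, which fix carbon dioxide into sugar phosphates, took the largest share of the shoot libraries of any family described, 4.08% to 4.71% against 0.573% to 0.701% of the root libraries. Of 75 genes tested 52 were higher in shoots, 17 were higher in roots and 6 were not called, with a median of 8.09. The 22 genes of the small chain of Rubisco were all higher in shoots, with a median of 11.03, and 3 of them had the highest mean counts of any described gene in shoots. The first, TraesCS5A02G165400 (chromosome 5A, 353988332 to 353989702), was at 58.96, 59.2 and 48.03 in roots and at 120629, 97427 and 94828 in shoots (10.85, SE 0.16, adjusted p = 2.11e-07), followed by TraesCS5B02G162800 with 103800, 85304 and 81464 and TraesCS5A02G165700 with 76647, 69276 and 68642 in shoots. The roots held at most 59.2 normalized counts of any of these 3 genes. Enzymes that the cycle shares with glycolysis or that have forms outside the chloroplast were divided: of 11 glyceraldehyde-3-phosphate dehydrogenases 4 were higher in each organ, of 11 fructose-bisphosphate aldolases 7 were higher in shoots and 4 in roots, and of 10 carbonic anhydrases 5 were higher in each. Carbonic anhydrase TraesCS7A02G454400 (chromosome 7A, 649150422 to 649154246) was at 29.9, 61.96 and 141 in roots and at 1.23, 3.70 and 1.07 in shoots (-4.54, SE 0.62, adjusted p = 0.000876). The count of 17 genes higher in roots dropped to 9 without salt-treated shoot replicate 1 and to 10 without replicate 2 or 3 of the shoots.

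Photorespiration recovers carbon from the oxygenase reaction of Rubisco, and catalase removes the hydrogen peroxide that it yields. Of 30 genes tested 21 were higher in shoots and 5 in roots (median 3.60). The glycine cleavage P protein TraesCS3B02G279700 was at 1945, 1890 and 2144 in roots and 16874, 18493 and 16820 in shoots (3.13, SE 0.14, adjusted p = 5.37e-06), while the H protein TraesCS6A02G163500 of the same complex was higher in roots, with 1296, 1058 and 1173 there and 370, 319 and 331 in shoots (-1.78, SE 0.13, adjusted p = 4.34e-05). Catalases fell on both sides, with 3 of 7 genes higher in each organ. TraesCS4B02G325800 was at 8.41, 2.78 and 6.98 in roots and 11543, 13103 and 11277 in shoots, and TraesCS7A02G549800 at 2814, 2676 and 2240 in roots and 1112, 1122 and 761 in shoots (-1.38, SE 0.19).

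The machinery that builds and maintains chloroplasts was higher in shoots with few exceptions. Of 69 chlorophyll and carotenoid synthesis genes 66 were higher in shoots, 0 in roots and 3 were not called (median 3.54), and geranylgeranyl diphosphate reductase TraesCS6B02G336300 (chromosome 6B, 591507052 to 591509493), which makes the phytyl tail of chlorophyll, was at 42.1, 18.5 and 20.1 in roots and 10324, 10034 and 8715 in shoots (8.53, SE 0.30, adjusted p = 2.20e-06). All 37 plastid ribosomal proteins were higher in shoots (median 5.79), among them the small-subunit protein S8 TraesCSU02G184800, at 350, 406 and 333 in roots and 5835, 4278 and 4236 in shoots (3.71, SE 0.17). The 24 proteolytic subunits of the Clp protease, which degrades proteins of the plastid stroma, were also all higher in shoots but by less (median 2.64), as for TraesCS6B02G262000, at 396, 332 and 419 in roots and 4421, 5131 and 4803 in shoots (3.65, SE 0.14). All 8 chloroplast chaperones and chaperonins were higher in shoots (median 6.81). For TraesCS7A02G172900, an RBCX chaperone that assists the assembly of Rubisco, all root libraries were listed at 0 and the shoots were at 209, 304 and 233. Of 14 other ribosomal proteins 6 were higher in shoots, 1 in roots and 7 were not called.

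**Figure D2:**
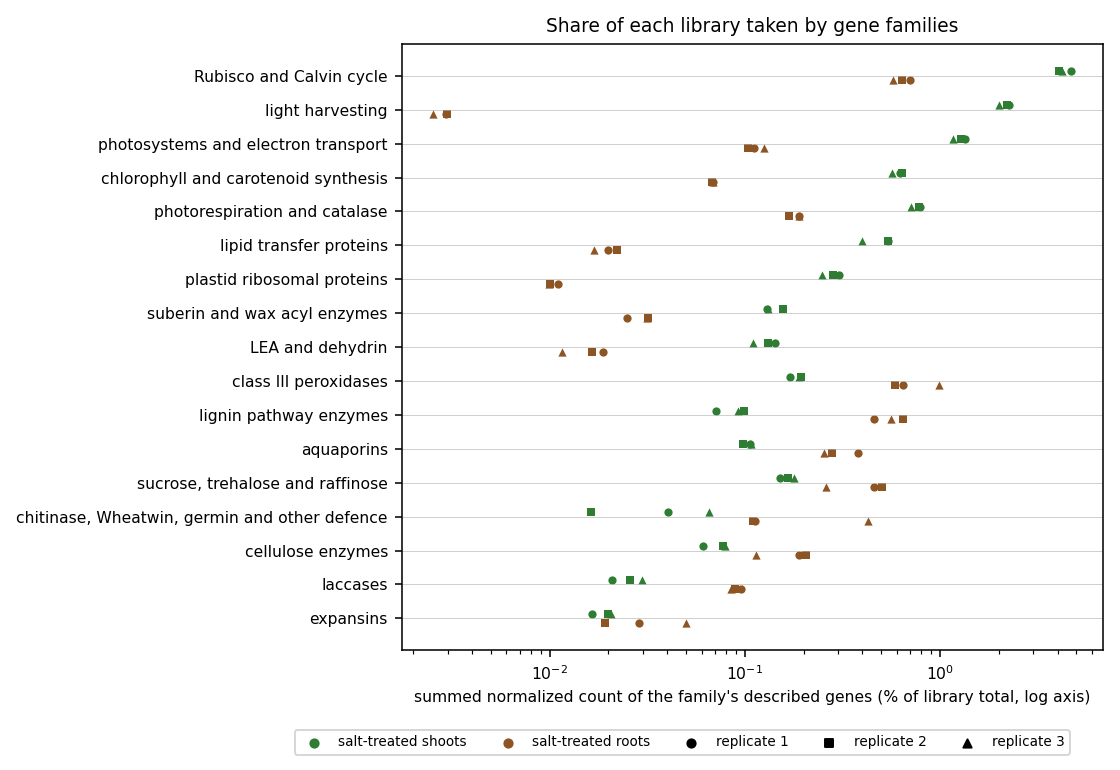
Summed normalized counts of the described genes of 17 families (y axis) as a percentage of each library's total (x axis, log scale), in the 3 salt-treated shoot and the 3 salt-treated root libraries, with symbols for replicates. Light harvesting was at 2.01% to 2.26% of shoot libraries and 0.00254% to 0.00298% of root libraries, whereas class III peroxidases were at 0.170% to 0.193% and 0.587% to 0.984%.

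Genes for the lipids of the plant surface were higher in shoots. Of 86 suberin and wax acyl enzymes, which lengthen and reduce the very long fatty acids of cuticle wax and suberin, 78 were higher in shoots and 7 in roots (median 4.72). Of 55 3-ketoacyl-CoA synthases, which set the chain length, 50 were higher in shoots and 4 in roots, and of 19 fatty acyl-CoA reductases, which make fatty alcohols, 16 and 3. The gene with the highest mean count, the 3-ketoacyl-CoA synthase TraesCS4A02G007400 (chromosome 4A, 4775324 to 4779453), was at 21.4, 79.8 and 2.62 in roots and 4440, 4772 and 4501 in shoots (7.93, SE 0.99, adjusted p = 0.000548), and its root values spread over more than an order of magnitude. A copy on the other side, TraesCS1A02G039800, was at 35.9, 33.4 and 24.4 in roots and 1.23, 1.23 and 0 in shoots (-4.22, SE 0.43).

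Lipid transfer proteins, small secreted proteins that carry wax and cutin monomers to the surface, were higher in shoots for 18 of 22 genes tested and in roots for 3 (median 7.11). They took 0.397% to 0.542% of each shoot library and 0.0168% to 0.0220% of each root library. The one with the highest mean count, TraesCS3B02G062800 (chromosome 3B, 35037705 to 35038052), was at 142, 263 and 13.97 in roots and 24362, 19770 and 12531 in shoots (7.78, SE 0.98, adjusted p = 0.000577). It lies among 7 described lipid transfer genes on chromosome 3B with neighbouring identifiers (TraesCS3B02G062600 to TraesCS3B02G064100), and all 7 were higher in shoots. Root replicate 3 ran lower than the other root libraries over the family, with a median difference of -0.95 log2 units from their mean. The copy TraesCS5B02G146000, at 112, 54.5 and 91.1 in roots and 3.70, 0 and 0 in shoots, was higher in roots (-5.63, SE 0.67).

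Class III peroxidases, secreted haem enzymes that couple lignin and loosen or stiffen the wall, were the largest family and set roots apart: of 255 genes tested 177 were higher in roots, 46 in shoots and 32 were not called, with a median of -3.999. Of the 5 described genes highest in roots by fold change 4 were peroxidases. TraesCSU02G137300 (unplaced sequence, 124826304 to 124827898) was at 2659, 840 and 3330 in roots and 0, 3.69 and 0 in shoots (-10.19, SE 0.76, adjusted p = 4.28e-05), and TraesCS5B02G040900 at 1786, 1739 and 1634 in roots and 0, 3.69 and 0 in shoots (-10.005, SE 0.60). The other 2 were TraesCS2A02G573700 (-9.72, SE 0.46) and TraesCS1B02G115700 (-9.68, SE 0.37). By mean count the highest peroxidase, TraesCS2A02G571300, was at 8639, 7981 and 7633 in roots and 572, 720 and 439 in shoots (-3.83, SE 0.20). In the other direction TraesCS4A02G201700 was at 3.06, 0.927 and 0 in roots and 803, 1027 and 750 in shoots (8.75, SE 0.51). Peroxidases ran higher in salt-treated root replicate 3, by a median of 0.73 log2 units over the mean of the other root libraries. Without that library 161 were higher in roots and 44 in shoots.

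Enzymes of lignin precursors were also higher in roots, largely through phenylalanine ammonia-lyase. Of 43 lignin pathway genes 25 were higher in roots, 4 in shoots and 14 were not called (median -2.30), and they took 0.461% to 0.648% of each root library and 0.0715% to 0.0989% of each shoot library. Phenylalanine ammonia-lyase, the entry enzyme of the phenylpropanoid pathway, accounted for 20 of the 25, out of 31 genes tested with none higher in shoots. Its copy TraesCS6B02G258400 (chromosome 6B, 465148031 to 465154487) had the highest mean count of any described gene in roots, with 36166, 41561 and 21273 there and 3560, 4242 and 4549 in shoots (-2.95, SE 0.28, adjusted p = 0.00014). Later steps gave examples in each direction: cinnamoyl-CoA reductase TraesCS5A02G163400 was at 1501, 2046 and 2624 in roots and 214, 283 and 266 in shoots (-2.98, SE 0.23), while cinnamyl alcohol dehydrogenase 12 TraesCS7A02G350500 was at 23.7, 21.3 and 0 in roots and 1005, 1238 and 358 in shoots (6.54, SE 1.24). The latter was not called when any 1 of the shoot libraries was left out (adjusted p = 0.0126 to 0.0222). Members of the family were lowest in salt-treated root replicate 1, with a median difference of -1.45 log2 units from the mean of the other root libraries.

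Laccases, which oxidise lignin monomers in the wall, were higher in roots for 26 of 41 genes tested and in shoots for 6 (median -2.01), but for 7 of 16 and 5 (median -0.54) among those described in the salt-against-control lists. TraesCS1B02G292600 (chromosome 1B, 509900807 to 509903224) was at 2042, 2141 and 836 in roots and 44.3, 52.9 and 41.6 in shoots (-5.03, SE 0.36, adjusted p = 3.71e-05). The laccase TraesCS2A02G255500 was listed at 0 in all root libraries and was at 54.2, 78.7 and 44.9 in shoots.

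Families named for the root barrier were divided between the organs. Dirigent proteins, which steer the coupling of lignin-like phenolics, had 25 of 60 genes higher in each organ (median -0.50), but 9 of 16 in shoots and 1 in roots (median 3.48) among those described in the salt-against-control lists, with TraesCS4A02G430100 at 92.6, 114 and 10.5 in roots and 1097, 2985 and 1848 in shoots (5.19, SE 0.87, adjusted p = 0.00241) and TraesCS7A02G555100 at 939, 1415 and 3216 in roots and 2.46, 3.69 and 1.07 in shoots (-8.97, SE 0.51). The first was not called without shoot replicate 2 or 3 (adjusted p = 0.0131 and 0.0136). Of 39 CASP-like proteins, relatives of the scaffold of the Casparian strip, 15 were higher in roots and 11 in shoots (median -0.66). The root-higher TraesCS1A02G248700 was at 569, 846 and 312 in roots and 50.5, 93.6 and 71.7 in shoots (-2.91, SE 0.39), and the shoot-higher TraesCS7A02G496400 at 0.766, 4.63 and 0 and 175, 208 and 219 (6.55, SE 0.62).

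Wall-loosening enzymes differed by type. Expansins, which let walls extend at acid pH, were higher in roots for 22 of 30 genes tested and in shoots for 6, with a median of -4.86, but for 3 of 7 and 2 (median -1.18) among those described in the salt-against-control lists. Expansin TraesCS3A02G187600 (chromosome 3A, 224377624 to 224379151) was at 390, 267 and 755 in roots and 6.15, 6.15 and 3.21 in shoots (-6.16, SE 0.44, adjusted p = 3.42e-05), and TraesCS1A02G300200 was higher in shoots, with 147, 94.4 and 133 in roots and 755, 947 and 799 in shoots (2.75, SE 0.20). The summed expansins took 0.0191% to 0.0499% of root libraries and 0.0164% to 0.0206% of shoot libraries, which overlap, and ran higher in root replicate 3 by a median of 1.20 log2 units over the mean of the other root libraries. Xyloglucan enzymes, which cut and rejoin hemicellulose, were higher in shoots for 32 of 61 genes and in roots for 15 (median 1.501). All described genes gave similar shares, with 2103 of 4639 higher in shoots and 1136 in roots (median 1.11). TraesCS7B02G327700 was at 298, 725 and 256 in roots and 3345, 3286 and 4747 in shoots (3.29, SE 0.39), and TraesCS7A02G463800 was at 86.6, 83.3 and 237 in roots and listed at 0 in all shoot libraries.

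Pectin enzymes were higher in shoots for 31 of 46 genes and in roots for 9 (median 2.76), among them 13 of 18 pectin acetylesterases and 12 of 21 pectinesterases. In the other direction the pectinesterase TraesCS1A02G263900 was at 949, 636 and 597 in roots and 12.3, 4.92 and 5.34 in shoots (-6.49, SE 0.37, adjusted p = 1.37e-05). The shoot-higher DEG of the highest mean count was a polygalacturonase-inhibiting protein, TraesCS2A02G199600, at 490, 335 and 739 in roots and 1379, 1239 and 1196 in shoots (1.35, SE 0.27). It was not called without root replicate 1 or any shoot replicate (adjusted p = 0.0216 to 0.0280), nor when scaled to the same total (0.90). Cellulose enzymes were higher in roots for 12 of 20 genes and in shoots for 4 (median -1.19), and the cellulose synthase TraesCS1A02G149300 was at 4956, 5649 and 3131 in roots and 1663, 2113 and 1982 in shoots (-1.22, SE 0.24, adjusted p = 0.00521). This gene was not called without root replicate 1 or 2 or any shoot replicate (adjusted p = 0.0145 to 0.0264). That count of 12 dropped to 6 without root replicate 1, root replicate 2 or shoot replicate 3, and to 7 without shoot replicate 1. The shoot-higher endoglucanase TraesCS6A02G295300 was at 3.06, 3.71 and 1.75 in roots and 123, 165 and 167 in shoots (5.33, SE 0.33).

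Aquaporins, the water channels of the plasma membrane and the vacuole, were higher in roots for 6 of 12 genes and in shoots for 1 (median -1.21), whereas of the 5 described in the salt-against-control lists 0 were higher in roots and 1 in shoots (median 0.02). The family took 0.255% to 0.379% of each root library and 0.0981% to 0.108% of each shoot library. TraesCS6B02G450000 (chromosome 6B, 708988727 to 708990312) was at 22175, 16549 and 12964 in roots and 4178, 3701 and 4672 in shoots (-2.01, SE 0.23, adjusted p = 0.000371). The plasma membrane intrinsic protein TraesCS2B02G425600 was higher in shoots, with 1207, 1009 and 958 in roots and 3412, 3300 and 3140 in shoots (1.64, SE 0.14, adjusted p = 7.04e-05). The gamma-type tonoplast protein TraesCS4A02G410800, at 6753, 5321 and 5468 in roots and 5730, 5618 and 6397 in shoots, overlapped between the organs. The count of 6 dropped to 3 without root replicate 1, shoot replicate 2 or shoot replicate 3.

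Potassium, sodium and proton transport genes were higher in shoots for 23 of 45 genes tested and in roots for 11 (median 1.27). These shares were near those of all 4639 described genes, of which 2103 were higher in shoots and 1136 in roots (median 1.11). HKT8 (TraesCS4B02G370800, chromosome 4B, 656815048 to 656817444), of the HKT family of sodium transporters that in wheat withdraw sodium from the root xylem, was at 66.6, 69.6 and 24.5 in roots and listed at 0 in all shoot libraries (adjusted p = 7.05e-05). Proton pumps and vacuolar exchangers lay on the other side: 4 of 5 plasma membrane ATPases were higher in shoots, as for TraesCS4A02G282900 at 89.1, 98.5 and 36.3 in roots and 492, 573 and 487 in shoots (2.90, SE 0.37), and the vacuolar cation/proton exchanger TraesCS3A02G202800 was at 557, 492 and 592 in roots and 1771, 2325 and 1981 in shoots (1.88, SE 0.15, adjusted p = 5.66e-05). The sodium/hydrogen exchanger TraesCS2A02G121000, of a kind that moves sodium out of the cytosol in exchange for protons, was at 107, 103 and 77.7 in roots and 278, 512 and 460 in shoots (2.08, SE 0.27). Cation/H(+) antiporter 19 TraesCS5B02G031800 had the most negative value, with 388, 390 and 297 in roots and 0, 1.23 and 13.9 in shoots (-6.79, SE 0.91). Of 27 potassium transporters 10 were higher in shoots, among them TraesCS2B02G286400 (5.32, SE 0.28), and 7 in roots, among them TraesCS4B02G310300 (-5.51, SE 0.44).

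Transporters that take up mineral nutrients were higher in roots for 9 of 18 genes tested and in shoots for 2 (median -2.42). The high affinity nitrate transporter TaNRT2 (TraesCS6B02G044300) was at 103, 196 and 148 in roots and listed at 0 in all shoot libraries. Of 8 ammonium transporters 5 were higher in roots and none in shoots, with TraesCS6A02G226800 at 364, 522 and 193 in roots and 1.23, 1.23 and 5.34 in shoots (-6.72, SE 0.55, adjusted p = 6.61e-05). Phosphate carriers were split, with 3 of 6 higher in roots and 2 in shoots. The root-higher TraesCS5B02G512000 was at 119, 111 and 168 in roots and 0, 1.23 and 0 in shoots (-6.65, SE 0.43), and the shoot-higher TraesCS6B02G236600 (chromosome 6B, 408240772 to 408244067) at 0, 0.928 and 0 in roots and 509, 462 and 544 in shoots (8.66, SE 0.35). The silicon efflux transporter TraesCS5A02G529900 (chromosome 5A, 688973484 to 688976168), a gene of the pathway by which grasses load silicon into the xylem, was among the 5 described genes highest in roots, with 1660, 1708 and 2393 there and 0, 2.46 and 1.07 in shoots (-9.94, SE 0.46, adjusted p = 5.64e-06).

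Nicotianamine synthases make the metal chelator from which grasses derive the phytosiderophores that they secrete to dissolve iron. Of 34 genes for nicotianamine and metal transport 16 were higher in roots and 8 in shoots (median -0.85), and the 8 dropped to 5 without shoot replicate 2 and to 3 when libraries were scaled to the same total. Nicotianamine synthase TraesCS2B02G060800 was at 508, 505 and 608 in roots and listed at 0 in all shoot libraries, and nicotianamine aminotransferase 1 TraesCS1A02G291100 was at 215, 107 and 159 in roots and 0, 0 and 1.07 in shoots (-6.93, SE 0.44). Although 5 of 8 nicotianamine synthases were higher in roots, the summed count was higher in shoots, where the genes called were TraesCS2B02G111100, at 579, 816 and 489 in roots and 4354, 5400 and 4889 in shoots, and TraesCS2A02G095700, at 401, 576 and 442 in roots and 1820, 2595 and 1937 in shoots. A basic helix-loop-helix factor named for the iron deficiency response, TraesCS2A02G281200, was at 310, 259 and 124 in roots and 9.85, 6.15 and 8.55 in shoots (-4.58, SE 0.40). Deoxymugineic acid synthase 1-A (TraesCS4A02G074800), which completes the phytosiderophore, was at 1499, 831 and 1286 in roots and 439, 433 and 388 in shoots (-1.48, SE 0.22, adjusted p = 0.00145), and the copper transporter TraesCS2A02G199000 was higher in shoots, with 3.07, 0 and 1.75 in roots and 29.4, 41.95 and 72.96 in shoots.

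Nitrogen assimilation was divided by isoform, with 9 of 29 genes higher in shoots and 12 in roots (median -0.34). Glutamine synthetase, which joins ammonium to glutamate and has cytosolic and plastid forms, gave both signs: TraesCS2A02G500400 (chromosome 2A, 729293649 to 729297303) was at 394, 366 and 423 in roots and 11645, 11142 and 10955 in shoots (4.83, SE 0.12, adjusted p = 7.59e-07), and TraesCS6B02G327500 was at 7703, 6777 and 11508 in roots and 3761, 4389 and 4257 in shoots (-1.03, SE 0.22, adjusted p = 0.00819). The latter was not called without root replicate 1 or 3 or any shoot replicate (-1.10 to -0.81, adjusted p = 0.00678 to 0.0386). The DETOXIFICATION (MATE) transporters, which export organic acids and secondary metabolites, were likewise divided, with 33 of 86 higher in roots and 27 in shoots (median -0.09). TraesCS4A02G066800 was at 1015, 746 and 886 in roots and 70.7, 84.3 and 104 in shoots (-3.34, SE 0.19), and TraesCS3B02G563700 at 9.17, 3.71 and 2.62 in roots and 587, 987 and 1285 in shoots (7.35, SE 0.46).

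Carbon storage and transport separated by pathway. Starch genes were higher in shoots for 40 of 52 genes tested and in roots for 2 (median 1.93), with the starch synthase TraesCS7B02G018600 at 469, 393 and 338 in roots and 3146, 3082 and 3127 in shoots (2.97, SE 0.15, adjusted p = 7.72e-06). The beta-amylase TraesCS1B02G165400, higher in roots, was at 30.1, 21.7 and 53.5 in roots and 3.76, 2.51 and 2.18 in shoots (-3.17, SE 0.42). Of 38 sucrose, trehalose and raffinose genes 12 were higher in roots, 4 in shoots and 22 were not called (median -0.40). Sucrose synthase, which cleaves imported sucrose in sink organs, included TraesCS7B02G063400 (chromosome 7B, 68344037 to 68349270), at 24128, 27402 and 10990 in roots and 2063, 2428 and 2801 in shoots (-3.005, SE 0.35, adjusted p = 0.000404). Of 13 trehalose 6-phosphate phosphatases, which remove a sugar signal, 8 were higher in roots and none in shoots (median -3.72). The chloroplastic invertase TraesCS2A02G292900 was higher in shoots, with 231, 238 and 221 in roots and 1955, 1984 and 1894 in shoots (3.07, SE 0.11).

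SWEET transporters let sugars leave cells on the way to the phloem or to sinks. Of 34 SWEET genes tested 21 were higher in shoots and 7 in roots (median 1.73), and with 2 further sugar carriers the family had a median of 1.496. TraesCS6A02G382600 was at 987, 939 and 865 in roots and 1943, 2914 and 2015 in shoots (1.28, SE 0.18, adjusted p = 0.00107). Scaled to the same total it was at 0.82 and not called. TraesCS6A02G009100 (chromosome 6A, 3771987 to 3774077) was the reverse, with 648, 822 and 586 in roots and 0, 1.23 and 0 in shoots (-9.02, SE 0.39, adjusted p = 4.75e-06).

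Antioxidant and thioredoxin genes, many of them plastid proteins that reduce enzymes in the light, were higher in shoots for 41 of 52 genes tested and in roots for 3 (median 3.25). The thioredoxin domain protein TraesCS6B02G409800 was at 4.59, 1.85 and 3.49 in roots and 11352, 10496 and 9539 in shoots (11.29, SE 0.26, adjusted p = 5.86e-07). Of 8 glutathione peroxidases 7 were higher in shoots. The peroxiredoxin PER1 TraesCS2B02G174400 was higher in roots, with 231, 36.99 and 27.1 there and 2.46, 2.46 and 4.28 in shoots (-3.98, SE 0.79), a difference for which root replicate 1 was far above the other root libraries. The gene was not called when any 1 of the shoot libraries was left out (adjusted p = 0.0180 to 0.0244). Of 6 glutathione S-transferases, which conjugate glutathione to toxic compounds, 3 were higher in roots and 1 in shoots, with TraesCS6A02G139000 at 172, 146 and 149 in roots and 0, 1.23 and 0 in shoots (-6.90, SE 0.41) and TraesCS7A02G187300 at 8.43, 9.24 and 12.2 and 36.9, 41.9 and 43.9 (1.95, SE 0.29). These 6 are only the genes whose description names the enzyme. From its pathway search the paper reports many more glutathione S-transferase genes among its root DEGs.

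Proteins of dehydrated cells were mostly higher in shoots. Of 10 LEA and dehydrin genes 8 were higher in shoots, 1 in roots and 1 was not called (median 2.44), and the family took 0.111% to 0.143% of each shoot library and 0.0116% to 0.0187% of each root library. The highest mean over the 6 libraries was that of the cold induced protein TraesCS3B02G175900 (chromosome 3B, 177968178 to 177968904), at 1417, 1382 and 959 in roots and 10105, 8727 and 7913 in shoots (2.84, SE 0.20, adjusted p = 3.13e-05). The LEA/RAB-related COR protein TraesCS5A02G503900 was at 2.30, 0 and 0.874 in roots and 4144, 3793 and 2693 in shoots (10.89, SE 0.44), and the group 3 LEA gene TraesCS4B02G332800 at 261, 187 and 34.1 and 10886, 10589 and 6954 (6.27, SE 0.71). The exception was the ABA inducible protein TraesCS1B02G381500 (chromosome 1B, 614292094 to 614293204), at 215, 166 and 154 in roots and 29.5, 35.7 and 32.1 in shoots (-2.41, SE 0.22, adjusted p = 0.000105).

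Proline metabolism was higher in shoots for 4 of 9 genes tested, 0 were higher in roots and 5 were not called (median 1.24). The share higher in shoots was near that of all described genes (2103 of 4639, median 1.11). Delta-1-pyrroline-5-carboxylate synthase (P5CS), which commits glutamate to proline, was at 2755, 2157 and 1771 in roots and 8677, 6920 and 7368 in shoots for TraesCS3B02G395900 (chromosome 3B, 623824481 to 623830911, 1.80, SE 0.20, adjusted p = 0.000299). Its copies TraesCS3A02G363700 and TraesCS3D02G357200 were also higher in shoots (1.54, SE 0.19, and 1.54, SE 0.27). A further P5CS gene, TraesCS1B02G290600, overlapped between the organs, with 2358, 1978 and 2121 in roots and 2025, 2111 and 2081 in shoots. Proline dehydrogenase, which degrades proline, was higher in shoots for TraesCS1B02G223300, at 329, 552 and 395 in roots and 893, 1036 and 1032 in shoots (1.24, SE 0.20).

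The counts for heat shock proteins and chaperones changed with a single root library. Of 22 heat shock and chaperone genes 9 were higher in shoots, 1 in roots and 12 were not called (median 2.92), and without salt-treated root replicate 2 the count higher in shoots was 17. The family includes chloroplast chaperones already counted above. Among the 14 genes described as heat shock proteins 3 were higher in shoots, 1 in roots and 10 were not called. Of these 14 genes 13 were highest in root replicate 2, by a median of 3.13 log2 units over the other root libraries. The sums of the 14 were 1383, 5498 and 1201 in roots and 4882, 6781 and 3800 in shoots. HSP90 TraesCS2A02G033700 was at 10.7, 496 and 5.23 in roots and 347, 745 and 170 in shoots, and was not called (3.42, SE 1.57, adjusted p = 0.122), but passed the test without root replicate 2 (5.37, adjusted p = 0.00106). The chaperonin-like RBCX protein TraesCS7B02G078200 was at 39.2, 26.7 and 40.2 in roots and 622, 510 and 401 in shoots (3.81, SE 0.24). The class VI heat shock protein TraesCS1A02G319600 was higher in roots, with 392, 456 and 322 there and 178, 181 and 177 in shoots (-1.11, SE 0.16, adjusted p = 0.00123), and was at -0.99 and not called without root replicate 2.

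Defence genes were higher in roots for 15 of 36 genes tested and in shoots for 4 (median -1.76), and 17 were not called. Of 8 pathogenesis-related 1 (PR-1) genes, secreted proteins that mark defence responses, 6 were higher in roots and none in shoots. All 8 were highest in salt-treated root replicate 3, by a median of 2.94 log2 units over the other root libraries, and their sums were 6117, 5277 and 32297 in roots and 1052, 179 and 1778 in shoots. By mean count the highest of them, TraesCS7A02G198900 (chromosome 7A, 161650540 to 161651403), was at 1844, 1842 and 5775 in roots and 33.2, 34.5 and 41.8 in shoots (-6.18, SE 0.44, adjusted p = 3.47e-05). Of 11 chitinases, which attack fungal walls, 4 were higher in roots and none in shoots, as for TraesCS3B02G159700 at 416, 254 and 312 in roots and 8.62, 17.2 and 14.95 in shoots (-4.51, SE 0.32). The PR1-RK2 gene TraesCS3A02G477300 was higher in shoots, with 0, 0.927 and 8.72 in roots and 56.6, 55.3 and 145 in shoots (4.88, SE 0.86). That call was lost without root replicate 2 or any shoot replicate (adjusted p = 0.0109 to 0.0161). What set the values of root replicate 3 apart was not tested.

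Of 5 terpene enzymes 3 were higher in shoots and 1 in roots. The terpene cyclase TraesCS6A02G111400 was at 0.764, 1.86 and 0 in roots and 1073, 946 and 607 in shoots (8.96, SE 0.44), and ent-copalyl diphosphate synthase TraesCS2B02G445500, of the branch to gibberellins and diterpene defences, at 1149, 1607 and 6640 in roots and 9.85, 2.46 and 8.54 in shoots (-8.34, SE 0.72). Lipoxygenases, which open the pathway to jasmonate, were called in opposite directions: TraesCS5B02G006500 (chromosome 5B, 7706077 to 7709832) was listed at 0, 0 and 0.872 in roots and at 3995, 13530 and 3542 in shoots (12.19, SE 0.55, adjusted p = 5.28e-06), and TraesCS5B02G382600 was at 1527, 2343 and 4406 in roots and 45.6, 141 and 57.6 in shoots (-5.10, SE 0.51). Over all 23 lipoxygenase and jasmonate genes 5 were higher in roots, 4 in shoots and 14 were not called, and the 5 dropped to 3 without root replicate 2, root replicate 3, shoot replicate 1 or shoot replicate 3.

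Hormone genes showed smaller differences. Of 71 auxin genes 23 were higher in shoots, 13 in roots and 35 were not called (median 0.88). Within them, 8 of 12 auxin efflux carriers, which move auxin out of cells in a set direction, were higher in roots and 3 in shoots, with TraesCS7B02G398100 at 268, 210 and 472 in roots and 2.46, 7.37 and 5.34 in shoots (-5.72, SE 0.45) and TraesCS3A02G231500 at 0.764, 1.85 and 1.74 and 77.6, 83.6 and 78.99 (5.08, SE 0.32). Auxin response factors, the transcription factors of the pathway, were higher in shoots for 12 of 22 and in roots for 4, among these TraesCS3A02G159200 at 587, 609 and 471 in roots and 11.1, 7.37 and 7.47 in shoots (-5.86, SE 0.24). The shoot-higher auxin gene of the highest mean count, the auxin-responsive TraesCS7B02G242800, was at 1131, 1206 and 543 in roots and 3118, 3026 and 2384 in shoots (1.64, SE 0.31). Leaving out any shoot library ended this call (adjusted p = 0.0138 to 0.0229), as did scaling to the same total (1.184, adjusted p = 0.0142). Scaled to the same total, 12 auxin genes were higher in shoots and 15 in roots, and without root replicate 1 or shoot replicate 3 the count higher in shoots was 14.

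Of 56 genes for cytokinin, gibberellin, ethylene and abscisic acid 18 were higher in shoots and 12 in roots (median 0.97), and 16 and 17 when libraries were scaled to the same total. Without shoot replicate 1 or 2 the 18 became 10, and without shoot replicate 3 it became 11. Phosphoribohydrolases that activate cytokinin held 10 of the 18, out of 12 tested with none higher in roots, and TraesCS1A02G156100 was at 44.4, 112 and 86.4 in roots and 617, 759 and 690 in shoots (3.17, SE 0.33). The ethylene precursor synthase TraesCS3A02G106600 was at 92.5, 63.03 and 27.1 in roots and 0, 1.23 and 0 in shoots (-5.40, SE 0.57).

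Regulators were mostly divided. Of 12 NAC factors, a plant family with many members in stress and senescence, 4 were higher in shoots and 2 in roots (median 1.22). NAC transcription factor 6B (TraesCS3B02G439600) was at 919, 1416 and 566 in roots and 2442, 2948 and 2482 in shoots (1.53, SE 0.32, adjusted p = 0.00636), and NAC domain protein 38 (TraesCS5B02G275200) at 164, 214 and 169 and 3.69, 8.61 and 19.2 (-4.23, SE 0.52). The first was not called without root replicate 1 or any shoot replicate (adjusted p = 0.0219 to 0.0294), nor when scaled to the same total (1.08, adjusted p = 0.0216). Scaled to the same total, 1 NAC gene was higher in shoots and 3 in roots. Without root replicate 1, or without shoot replicate 1 or 2, NAC genes higher in roots also outnumbered those higher in shoots (3 against 2, and 2 against 1). Of 95 other transcription factors 32 were higher in shoots and 19 in roots (median 1.16), such as the WRKY45-like factor TraesCS2A02G489500 at 104, 187 and 338 in roots and 1304, 1141 and 2738 in shoots (3.08, SE 0.49) and the MADS-box factor WM30 TraesCS2A02G337900 at 328, 320 and 305 and 1.23, 2.46 and 5.35 (-6.44, SE 0.41).

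Of 161 protein kinase and calcium signalling genes 51 were higher in shoots and 41 in roots (median 0.41, or -0.05 with 43 and 44 when libraries were scaled to the same total). The kinase STN7, which phosphorylates light-harvesting proteins to balance the photosystems, was at 32.9, 46.4 and 6.98 in roots and 3146, 3371 and 2380 in shoots for TraesCS1A02G369800 (6.97, SE 0.62). Kinase TraesCS1A02G356300 was at 239, 256 and 133 in roots and 2.46, 0 and 4.27 in shoots (-6.27, SE 0.64). None of 9 mitogen-activated protein kinases was called, with log2 fold changes from -0.29 to 0.97. Of 25 receptor kinases 8 were higher in shoots and 7 in roots, against 5 and 10 on equal totals, and these counts were 4 to 7 and 3 to 6 when single libraries were left out. SOBIR1 TraesCS7B02G122800, a co-receptor in immunity, was at 183, 485 and 353 in roots and 912, 1166 and 1392 in shoots (1.85, SE 0.36). Its call was lost without root replicate 3 or any shoot replicate (adjusted p = 0.0125 to 0.0244) and when scaled to the same total (1.396, adjusted p = 0.0132). A brassinosteroid receptor kinase, TraesCS5B02G174400, was at 324, 288 and 180 in roots and 16.01, 20.9 and 25.6 in shoots (-3.58, SE 0.30).

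Growth and housekeeping groups were mixed. Of 41 histone, cyclin and replication genes 10 were higher in shoots, 2 in roots and 29 were not called (median 0.77), with histone genes TraesCS7A02G438500 at 437, 503 and 503 in roots and 949, 1117 and 1102 in shoots (1.13, SE 0.13) and TraesCS4B02G052900 at 186, 150 and 246 and 18.5, 24.7 and 20.4 (-3.12, SE 0.26). Scaled to the same total, TraesCS7A02G438500 was at 0.68 and not called. Of 39 cytoskeleton genes 11 were higher in shoots and 9 in roots (median -0.38), against 7 and 13 when scaled to the same total. The 11 also became 7 without shoot replicate 1 or 3, and the 9 became 5 without root replicate 1. An actin gene, TraesCS5B02G124100, was at 2151, 1778 and 2194 in roots and 6309, 5905 and 5775 in shoots (1.56, SE 0.14), and actin-depolymerizing factor 6 TraesCS1B02G197600 at 19.9, 14.8 and 21.8 and 3.69, 2.46 and 0 (-2.95, SE 0.61). The factor was not called when any 1 of the root libraries or shoot replicate 2 was left out (adjusted p = 0.0152 to 0.0226). Among ribosomal proteins that the description did not place in the plastid group, TraesCS1B02G254000 was at 174, 187 and 122 in roots and 4224, 4874 and 3979 in shoots (4.77, SE 0.19). The 6 such genes higher in shoots were at 4.05 to 6.40, within the range of the plastid group (3.23 to 8.12). Whether they belong to plastid ribosomes was not tested. S24 of the cytosolic small subunit (TraesCS3A02G286000) was at 32.3, 12.8 and 28.9 in roots and 1.23, 6.19 and 2.16 in shoots (-2.69, SE 0.56). S24 was not called without root replicate 1 or 3 or shoot replicate 1 or 3 (adjusted p = 0.0240 to 0.0291).

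Of 118 proteases and inhibitors 76 were higher in shoots and 11 in roots (median 2.28). Among those described in the salt-against-control lists 9 of 31 were higher in shoots and 4 in roots. Their median was 0.47, against 0.45 for all genes described there. The protease inhibitor-like gene TraesCS2A02G411600 was at 511, 250 and 99.9 in roots and listed at 0 in all shoot libraries. Glycosyltransferases, which attach sugars to hormones and secondary metabolites, were higher in roots for 83 of 209 genes and in shoots for 62 (median -0.64). TraesCS2B02G040500 was at 337, 486 and 2365 in roots and 30.8, 3.69 and 48.1 in shoots (-5.23, SE 1.04, adjusted p = 0.00528), with root replicate 3 the highest, and TraesCS6B02G375200 was listed at 0 in all root libraries and at 193, 217 and 192 in shoots. The former was not called without root replicate 2 or 3 or shoot replicate 1 or 2 (adjusted p = 0.0102 to 0.0165). S-adenosylmethionine decarboxylase TraesCS2A02G355400, an enzyme of polyamine synthesis that ranked second by mean count among described genes in roots, was at 24543, 21445 and 22616 in roots and 11766, 11580 and 12489 in shoots and fell short of the fold threshold (-0.94, SE 0.18, adjusted p = 0.00417), but was called with libraries scaled to the same total (-1.39, adjusted p = 0.000712).

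**Figure D3:**
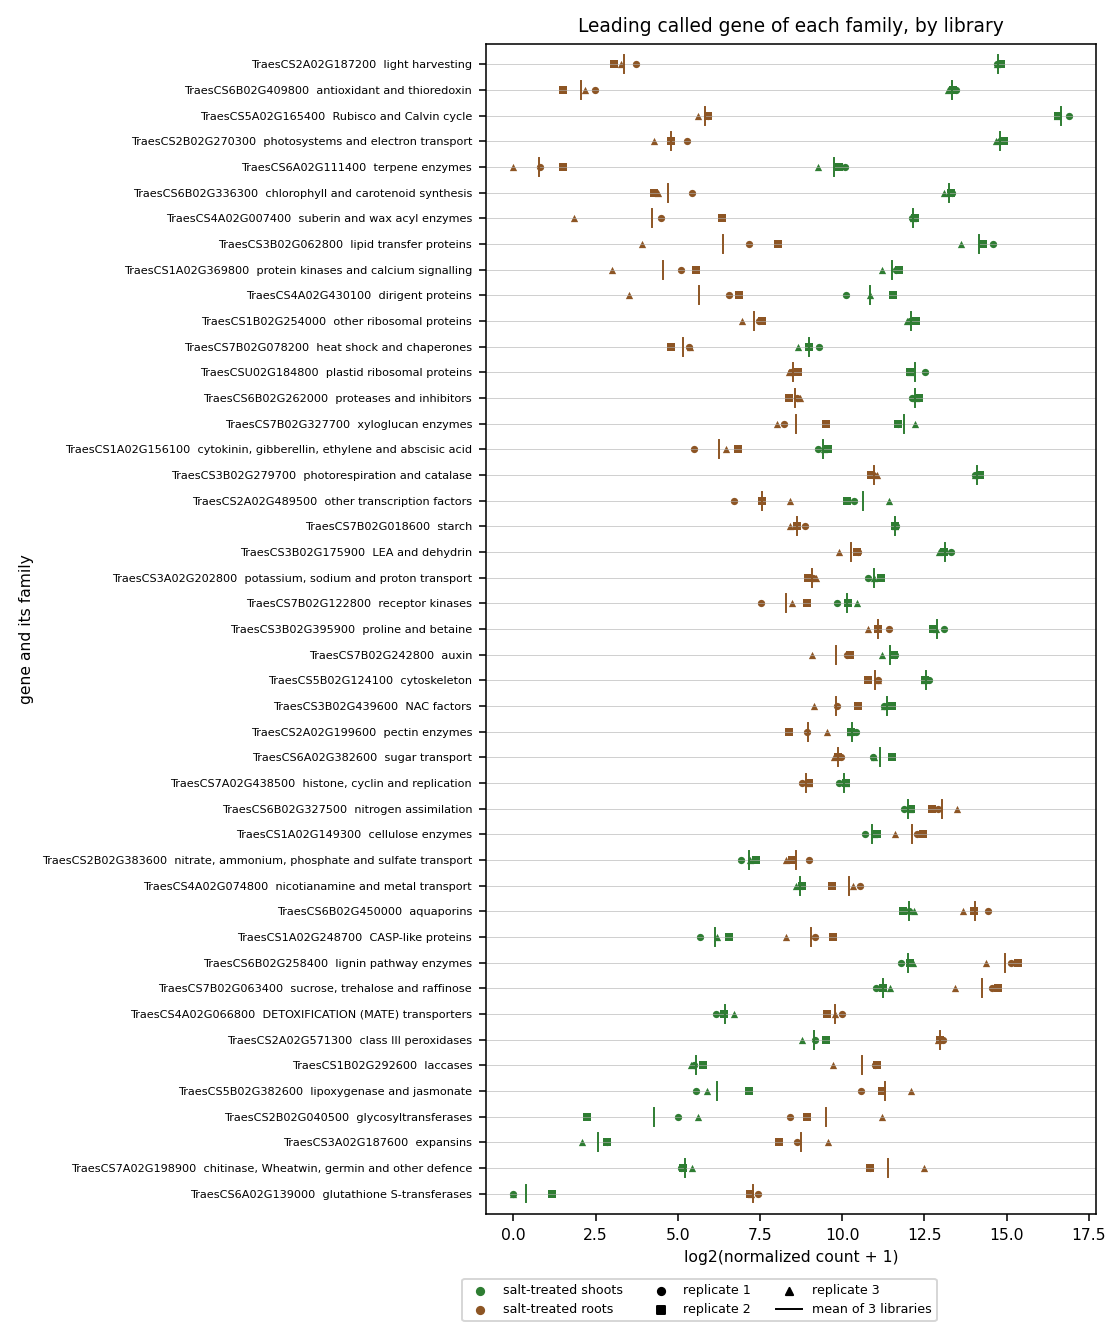
Log2(normalized count + 1) (x axis) in each salt-treated shoot and root library for the DEG of the highest mean count in the main direction of each family (y axis), ordered by fold change, with symbols for replicates and bars for the mean of 3 libraries. Rubisco small chain TraesCS5A02G165400 reached 120629, 97427 and 94828 normalized counts in shoots, and root replicate 3 stood apart for genes such as TraesCS7A02G198900 of the defence family.

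The study picked 8 genes for RT-qPCR, and all 8 were tested here and 3 were called between the organs. P5CS was higher in shoots, while the SWEET gene and the ABA inducible protein described above were higher in roots. The other 5, HSP90 (described above) and 4 more, had libraries that overlapped between the organs. A dirigent protein, TraesCS4A02G431400, was at 461, 445 and 278 in roots and 241, 387 and 559 in shoots (-0.04, SE 0.34, adjusted p = 0.935). The glutamate receptor TraesCS5B02G217500, a ligand-gated channel, was at 39.7, 93.7 and 57.6 in roots and 48.04, 46.7 and 91.8 in shoots (-0.02, SE 0.41, adjusted p = 0.974). The flavin-containing monooxygenase TraesCS5A02G348400 gave -0.73 (SE 0.43, adjusted p = 0.216) and the lipoxygenase TraesCS2B02G333600 -1.01 (SE 0.57, adjusted p = 0.201).

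To show which of these differences were particular to salt, the organ gap under salt was compared with the gap in control plants for the same genes, in 1 fit of all 12 libraries. Most of the separation was present without salt: 15720 of the 47079 genes were called between control shoots and control roots in this fit. The same fit called 15439 between the organs under salt. Of the 14010 DEGs from the fit of 6 libraries, 11528 were called in the same direction without salt in the fit of all 12. The gap itself differed for 939 genes (1.99%), of which 515 (1.09%) moved towards shoots and 424 (0.901%) towards roots, and 640 of the 939 were also DEGs between the organs under salt. At an unadjusted p under 0.05 the difference held for 9201 genes. The count of 939 depended on single libraries: it was 436 without control root replicate 2, 531 and 575 without control shoot replicates 2 and 3, 621 and 1426 without salt-treated root replicates 1 and 3, and 522 and 477 without salt-treated shoot replicates 1 and 2. Among the 4639 described genes 232 differed in their gap, 142 towards shoots and 90 towards roots. Descriptions come in part from lists of salt-treated against control plants of these same libraries. Described genes were thus partly selected for a salt response. Counts of them, and the counts by family below, are not a measure of enrichment.

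**Figure D4:**
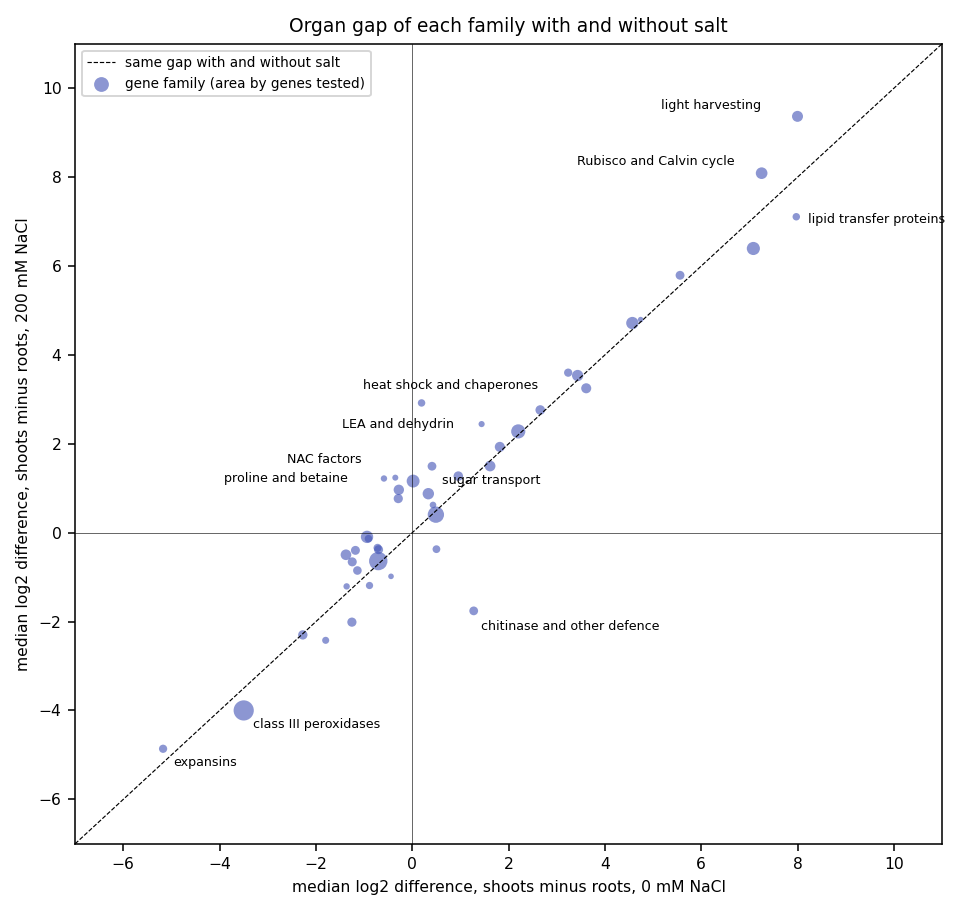
Median log2 difference between shoots and roots of each family at 200 mM NaCl (y axis) against that at 0 mM NaCl (x axis), with the area of each point by the number of genes tested and a dashed line where the gaps are equal. Most families lie near the line, and the defence family was at 1.28 without salt and at -1.76 with salt.

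By family, the median over genes of the difference of the gap was -2.93 for defence, with 6 genes called towards roots and none towards shoots, 1.78 for NAC factors (1 called towards shoots), 1.69 for LEA and dehydrin (4 towards shoots), 1.39 for proline metabolism (3 towards shoots), 1.31 for light harvesting (8 towards shoots) and -1.19 for lipid transfer proteins (3 towards roots). Defence genes ran higher in salt-treated root replicate 3, by a median of 1.27 log2 units over the mean of the other root libraries. For heat shock and chaperones, where root replicate 2 stood apart, the median was 0.68, with none called towards shoots and 1 towards roots. Among the 14 of them described as heat shock proteins the median was 2.90, with none called in either direction. No family median was tested. Single genes passed the test in several of these groups. For P5CS TraesCS3B02G395900 the gap of -0.81 in control plants became 1.80 under salt (difference 2.61, adjusted p = 0.00633). Chitinase 3 (TraesCS3A02G260200) had a gap of 5.17 in control plants and -0.99 under salt (difference -6.16, adjusted p = 0.000364), and 5 chitinases in all moved towards roots. The ABA inducible protein TraesCS1B02G381500 kept its direction while its gap shrank from -7.80 to -2.41 (difference 5.39, adjusted p = 0.000312).

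Transport genes were among those whose gap changed. For HKT8 (TraesCS4B02G370800), with a gap of -0.80 in control plants and shoots listed at 0 under salt, the gap moved towards roots (adjusted p = 0.00228), and no size is given. The potassium transporter TraesCS3B02G481800 was far higher in shoots without salt (5.78) and about equal with it (0.03, difference -5.75, adjusted p = 0.000241). Of 34 SWEET transporters 8 moved towards shoots, such as TraesCS7B02G050500 from -0.84 to 2.88 (difference 3.72, adjusted p = 0.000241), and 1, TraesCS6A02G009100, towards roots (-4.36, adjusted p = 0.00121). Within photosynthesis 8 of 63 chlorophyll a-b binding proteins moved towards shoots, among them TraesCS5A02G350600 from 8.15 to 11.63 (difference 3.48, adjusted p = 0.00405), whereas 0 of 22 Rubisco small chains did. Another of the 8, TraesCS2A02G342600, was at 5.88, 21.8 and 23.2 in control roots and 1.53, 0 and 0.873 in salt-treated roots. Its log2 change under salt was -3.22 in roots and 0.28 in shoots. Since its salt-treated roots were near 0, the size of its difference depends on the pseudocount. Of 255 peroxidases 15 moved towards roots and 7 towards shoots.

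For 66 genes (0.140%) the organs were called in opposite directions with and without salt, 44 being higher in shoots and 22 higher in roots under salt, and 65 of the 66 also passed the test of the difference. Of these 15 were described, 11 higher in shoots under salt and 4 higher in roots. Dehydrin WZY2 (TraesCS6A02G350700, chromosome 6A, 582516436 to 582517359) was at 213, 183 and 114 in control roots and 3.25, 6.66 and 0 in control shoots, and at 349, 300 and 329 in salt-treated roots and 1205, 1398 and 1448 in salt-treated shoots. Its gap went from -5.69 to 2.04 (difference 7.74, SE 0.78, adjusted p = 0.000364), with higher values under salt in every library of both organs. The Rab protein TraesCS6B02G383500 was at 740, 588 and 302 in control roots, 6.498, 7.65 and 0 in control shoots, 485, 373 and 567 in salt-treated roots and 880, 833 and 1243 in salt-treated shoots (difference 8.03, adjusted p = 0.000747). Its shoots were near 0 without salt, its roots overlapped with their controls, and its organ difference under salt of 1.05 was not called when libraries were scaled to the same total (0.59, adjusted p = 0.0645) nor without root replicate 1 or 2 or any shoot replicate (0.87 to 1.16, adjusted p = 0.0144 to 0.0223).

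Proline dehydrogenase TraesCS1B02G223300 turned in another way. It was at 4425, 4480 and 4351 in control roots and 1716, 2423 and 2160 in control shoots, against 329, 552 and 395 and 893, 1036 and 1032 under salt, so that both organs were lower under salt and the roots more so (difference 2.33, adjusted p = 0.000716). A xyloglucan endotransglucosylase/hydrolase, TraesCS2B02G454500, was at 190, 158 and 72.2 in control and 1658, 2195 and 2264 in salt-treated shoots, with roots at 522, 350 and 350 and 235, 391 and 190 (difference 4.58, adjusted p = 0.000519). A kinase annotated to the hyperosmotic response, TraesCS2B02G521800, was at 4.88, 7.61 and 5.30 in control and 428, 325 and 478 in salt-treated shoots (difference 4.92, adjusted p = 0.00014). The copper transporter TraesCS5A02G377000 (2.43), a DETOXIFICATION gene TraesCS4B02G304300 (4.05), a NAC factor TraesCS5A02G143200 (2.72), a homeodomain-leucine zipper factor TraesCS4B02G261600 (2.77), a nudix hydrolase TraesCS2A02G416900 (3.99) and a kinase TraesCS4A02G194800 (4.64) also turned towards shoots.

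The 4 described genes that turned towards roots included the ammonium transporter TraesCS2B02G383600 (chromosome 2B, 547056743 to 547059023), at 826, 597 and 642 in control and 119, 166 and 146 in salt-treated shoots and at 272, 347 and 384 and 506, 356 and 311 in the roots (difference -2.46, adjusted p = 0.00108). Ethylene responsive factor 5a (TraesCS5B02G214400) was at 1883, 2066 and 1726 in control and 5698, 4564 and 4056 in salt-treated roots, and at 4737, 3793 and 3588 and 2352, 2135 and 1970 in the shoots, so that it was higher under salt in roots and lower in shoots (difference -2.23, adjusted p = 0.00046). A WAT1-related transporter, TraesCS5B02G219500, showed the same pattern, with 68.03, 66.1 and 81.97 and 346, 271 and 225 in roots and 221, 214 and 261 and 108, 77.5 and 53.4 in shoots (difference -3.51, adjusted p = 0.000364). The glucan endo-1,3-beta-glucosidase TraesCS3B02G524700 was at 1833, 885 and 936 in control and 24.6, 24.6 and 48.1 in salt-treated shoots (difference -6.17, adjusted p = 9.99e-05).

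**Figure D5:**
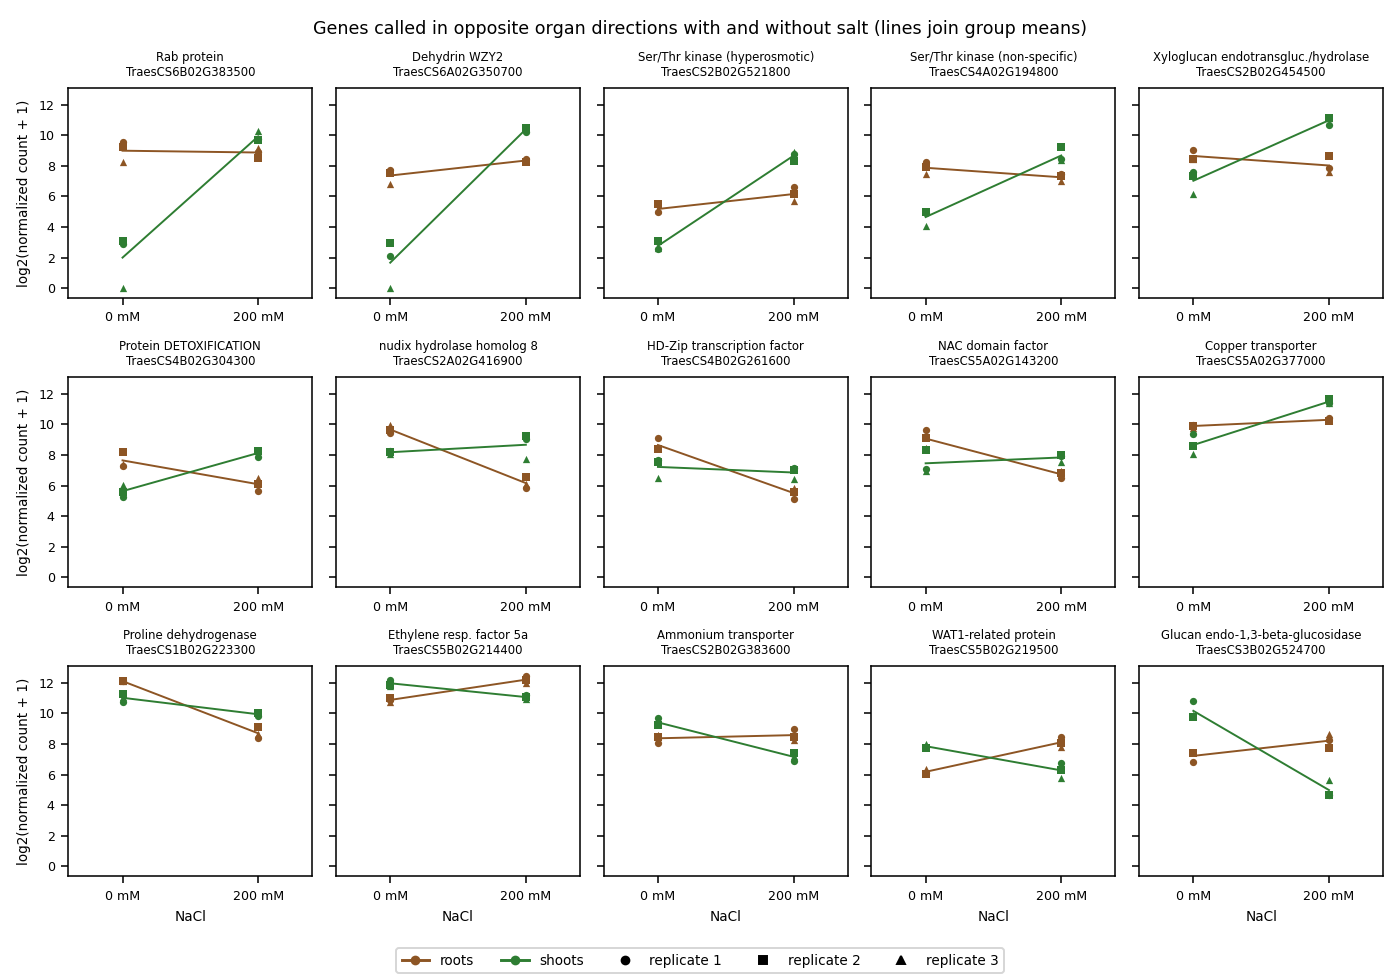
Log2(normalized count + 1) (y axis) in each of the 12 libraries for the described genes called in opposite directions between the organs with and without salt, by group. Dehydrin WZY2 was higher in control roots than in control shoots and higher in salt-treated shoots (1205 to 1448) than in salt-treated roots (300 to 349).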

How the data were processed

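Bread wheat RNA was sequenced by the authors from a non-directional library kit in 12 libraries, 3 from each organ and treatment. Reads were checked with FastQC 11.8, trimmed with Trimmomatic 0.36 and quantified with Salmon 0.12.0 against the Ensembl Plants IWGSC transcripts, and gene values were then made with tximport and DESeq2 by the authors. The deposited signal values are estimated counts divided by the authors' normalization factors. They are not whole reads and are not scaled to gene length, so no count model was fitted, read depth was not taken from these values, and ranks by mean count depend on gene length. The kit keeps no strand, so overlapping antisense genes cannot be told apart.

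Genes that reached 10 normalized counts in 3 or more of the 6 salt libraries were tested on log2(normalized count + 1) in limma 3.58.1 (R 4.3.3), with a variance trend and Benjamini-Hochberg adjustment over all 47079 genes. The organ gap with and without salt was compared by an interaction in 1 fit of all 12 libraries. A single gene could reach no less than p = 0.1 in an exact permutation test of 3 against 3 libraries. Python 3.11.15, pandas 2.3.3 and matplotlib 3.10.9 were used for summaries and plots, and the fit was tested on simulated data.

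Descriptions and IWGSC positions came from the annotation columns of 4 deposited comparison tables, whose fold changes, errors and p-values by the authors were not used. Genes named are the 5 described DEGs highest in each organ, the DEG of the highest mean count in the main direction of each family and the largest in the other direction, the 8 RT-qPCR genes, the 5 described genes with the largest difference of the gap and the 3 of the highest mean count in each organ. Members and lists were chosen with earlier results of these data known, and the words that sort families were completed after the descriptions were read. Subsets of families, groups outside them and further genes named were chosen after values were seen. Replicates are separate samples by their labels, and p-values measure the spread between them. Alternatives covered the thresholds, pseudocount, filter, scaling, variance trend, replicate block and each library left out.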

Additional observations from a re-analysis of the deposited data

Results flagged for a closer look

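The difference between shoots and roots was not the same with and without salt for 939 genes by the interaction test in limma, and the 5 described genes with the largest such difference are given here with their values in replicates 1, 2 and 3. The Rab protein TraesCS6B02G383500 differed by 8.03 (adjusted p = 0.000747), with values given above. Dehydrin WZY2 (TraesCS6A02G350700) differed by 7.74 (adjusted p = 0.000364).

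A chitinase, TraesCS3B02G293200, was at 31.9, 8.56 and 8.37 in control roots, 654, 279 and 409 in control shoots, 1050, 528 and 4502 in salt-treated roots and 494, 208 and 562 in salt-treated shoots, a difference of -6.69 (adjusted p = 0.00339). The xyloglucan endotransglucosylase/hydrolase TraesCS2A02G433500 was at 352, 117 and 163 in control roots, 128, 50.4 and 23.3 in control shoots, 31.4, 58.3 and 54.1 in salt-treated roots and 959, 1462 and 1369 in salt-treated shoots (6.52, adjusted p = 0.0008). The DETOXIFICATION gene TraesCS4A02G245300 was at 0, 0.776 and 0 in control roots, 8.12, 0 and 0 in control shoots, 0.764, 0 and 0 in salt-treated roots and 159, 177 and 243 in salt-treated shoots, and its fitted difference of 6.52 (adjusted p = 0.00395) depends on the pseudocount, since 3 of its 4 groups are at or near 0.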

How the results depend on the processing

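The count of 14010 DEGs between the organs stayed within 1.5 times under every alternative run, from 9369 with a mean count of at least 50 (32321 genes tested) to 16776 at an adjusted p of 0.05, and was 11541 to 13457 with single libraries left out. Of its directions, genes higher in roots moved to 3457 with a mean count of at least 50 and to 9164 with libraries scaled to the same total. The difference of the organ gap was called for 2662 genes at an adjusted p of 0.05 (1427 towards shoots, 1235 towards roots) and for 1483 with a pseudocount of 10 (789 and 694). With single libraries left out it ranged from 436 to 1426, towards shoots from 221 to 705 and towards roots from 215 to 721. The cause was not tested. With the replicate block 14009 DEGs were called, 13248 of them shared, and 888 for the gap, 735 shared. Among named genes the block made the lipoxygenase TraesCS2B02G333600 a call (-1.01, adjusted p = 0.00201) and ended those of TraesCS3A02G286000 (0.0193), TraesCS6B02G327500 (0.0116) and TraesCS1B02G197600 (0.0103). Same-numbered roots and shoots correlated in their deviations by 0.28, 0.20 and 0.075, each library correlating best with its own number. Deviations from a mean of 3 libraries are tied to each other. These values therefore cannot decide whether the numbers mark the same plants, which the study does not state. Of 108 named genes 87 kept their call under every alternative run, and none reversed. The values hold no read depth, and genes near 0 in an organ have fold changes that move with the pseudocount.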

Other observations

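Among described groups outside the families, DNA-binding AT-hook motif proteins were higher in roots for 11 of 12 genes and in shoots for none (median -5.84). WAT1-related proteins, a family of membrane transporters, were higher in roots for 39 of 57 and in shoots for 8 (median -3.36), flavin-containing monooxygenases for 21 of 34 and 8 (median -3.35), and sulfotransferases for 17 of 30 and 4 (median -2.87). Of 51 RING-type E3 ubiquitin transferases, which tag proteins for degradation, 19 were higher in roots and 3 in shoots. Of 8 ATP-dependent 6-phosphofructokinases, an entry enzyme of glycolysis, 6 were higher in roots and none in shoots.

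In the other direction, all 7 RNA polymerase sigma factors, which direct transcription in plastids, were higher in shoots (median 5.70). Of 24 peptidylprolyl isomerases, which help proteins fold, 21 were higher in shoots and 1 in roots (median 5.69). Purple acid phosphatases were higher in shoots for 15 of 29 and in roots for 2. Ubiquinol oxidase, the alternative oxidase of mitochondria, was higher in shoots for 5 of 8 and in roots for none (median 3.29), and glutamate receptors for 8 of 14 with none in roots (median 1.81).

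The 3 genes with the highest mean count in salt-treated shoots carried no description. TraesCS3B02G186100 took 3.78% to 4.75% of each shoot library, TraesCS5D02G425100 2.25% to 2.93% and TraesCS5D02G010200 0.825% to 1.04%, and together they took 6.89% to 8.71%.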
